A study of Homo sapiens with 8 samples.

Results

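The human leukaemia line Nalm6 held 9469 regions at which ATF4 peaks were listed in every one of its 4 libraries, treated and untreated, while none of the 4 libraries of the second line, SUPB15, listed a peak there. These Nalm6-only constant sites were found by merging the peaks of all 8 lists wherever they shared at least 1 bp, which gave 132657 regions. Of these, 25184 had a peak in all 4 Nalm6 lists and are called constant Nalm6 sites here. The Nalm6-only sites were 37.6% of them (95% Wilson interval 37.0 to 38.2, counting error only), and the other 15715 overlapped a peak of at least 1 SUPB15 library. The sites were chosen by the presence and absence of listed peaks, so neither is a finding.

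The libraries come from chromatin immunoprecipitation with a rabbit monoclonal antibody against ATF4, followed by sequencing. The groups were Nalm6 with L-asparaginase (1 IU/ml for 2 h), untreated Nalm6, SUPB15 with the same dose and time of L-asparaginase, and untreated SUPB15, with 2 libraries each. Both are established cell lines of B-cell precursor acute lymphoblastic leukaemia, and SUPB15 carries the BCR-ABL1 fusion. The design text speaks of independent experiments for Nalm6, and nothing used here says so for SUPB15. Positions are in hg19. Sites are named by position only, as genes of that build could not be looked up.

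ATF4 is a basic leucine zipper transcription factor of the integrated stress response. When amino acids run short, the kinase GCN2 phosphorylates the initiation factor eIF2 alpha, general translation slows and translation of the ATF4 message rises. ATF4 then binds DNA with partners such as C/EBP proteins at composite elements and raises genes for amino acid synthesis, uptake and stress control, among them asparagine synthetase. L-asparaginase breaks down extracellular asparagine, on which many lymphoblastic leukaemias depend.

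The lists held 43376 and 48984 peaks for Nalm6 with asparaginase and 34825 and 36801 for untreated Nalm6. They held 88302 and 41213 for SUPB15 with asparaginase and 9575 and 9586 for untreated SUPB15. Relative depth was taken from the genome background of each library, here the lowest background, in fragments, among its listed peaks. It was 2.21 to 2.97 in Nalm6 and 3.90 to 4.19 in SUPB15. The 2 libraries of a Nalm6 group differed by less than counting noise in every range of pileup compared. At regions of 40 to 80 piled-up fragments their squared difference was 0.712 (asparaginase) and 0.746 (untreated) of what Poisson sampling gives, and in the SUPB15 pairs it was 1.51 (asparaginase) and 1.20 (untreated). At 80 to 200 fragments it was 0.706 and 0.897 in Nalm6 and 2.15 and 1.34 in SUPB15. At 15 to 40 fragments, where most regions fall, it was below 1 in both lines, 0.622 and 0.587 in Nalm6 and 0.706 and 0.576 in SUPB15. This measure cannot tell whether the 2 libraries of a pair came from separate cultures. As a caution, each Nalm6 pair was counted as 1 sample in what is said of the conditions. All p-values that follow, from limma and from permutations, still treat the 4 libraries as units and measure the spread between the lists of such a pair. They compare these libraries, not the conditions over separate cultures.

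Most Nalm6-only sites were weak. Their median fold enrichment (summit over local background, as the peak caller gave it) was 4.97 and 5.11 in the asparaginase libraries and 4.31 and 4.49 in the untreated libraries. The other constant sites had medians of 6.56 and 6.78 with asparaginase and 5.81 and 6.07 without. The lowest of the 4 Nalm6 values had a median of 3.95 at Nalm6-only sites, with quartiles of 3.40 and 4.65 and a maximum of 21.6, and a median of 5.27 at the other constant sites. The distributions overlapped over most of their range, as the plot of strength shows. A −log10 q of 10 or more in all 4 Nalm6 lists was reached by 1962 Nalm6-only sites (20.7%) and by 10111 of the other constant sites (64.3%). Strength in Nalm6 is not independent of the rule, because a site that is weak in both lines can be missed in one of them. How far this applies here was not tested.

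**Figure D1:**
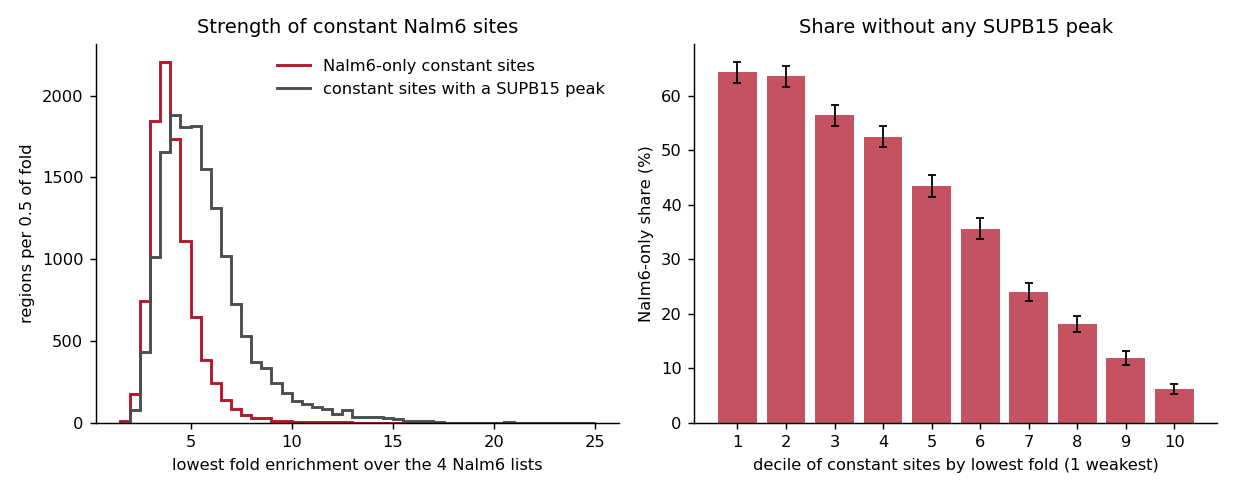
Left, the number of constant Nalm6 sites by the lowest fold enrichment over the 4 Nalm6 lists (x axis, fold over local background), with Nalm6-only sites in red and constant sites with a SUPB15 peak in grey. Right, the Nalm6-only share in percent for each decile of the 25184 sites by that value, with 95% Wilson intervals; it was 64.3% in the weakest decile and 6.11% in the strongest.

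The Nalm6-only share was 64.3% in the weakest decile of the constant sites, where the lowest fold was at most 3.23. It was 43.4% in the fifth decile, 18.1% in the eighth and 6.11% in the strongest, where the fold began at 7.55. Strong sites were thus seldom missing from SUPB15: among the 100 strongest constant sites 3 were Nalm6-only, and among the 5000 strongest 447 were.

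Nalm6-only sites were also narrower, with a median span of their Nalm6 peaks of 745 bp against 990 bp at the other constant sites. Their summits were less sharply placed. The summits of the 4 Nalm6 libraries lay within 50 bp of each other at 915 of them (9.66%) and at 3172 of the other sites (20.2%), and the median distance between the outermost summits was 152 bp against 119 bp. Weak peaks have less certain summits, and that part was not tested. The local background around the summits was 1.85 times the genome background at the median Nalm6-only site, against 2.36 times at the others.

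The longest SUPB15 list did most of the barring. Asparaginase replicate 1 of SUPB15 listed 15039 constant Nalm6 sites (59.7%), asparaginase replicate 2 listed 10804 (42.9%), and the untreated libraries listed 6057 (24.1%) and 5345 (21.2%). At 3978 sites asparaginase replicate 1 was the only SUPB15 library with a peak. Without that library 13476 sites would count as Nalm6-only, and without any single one of the other SUPB15 libraries 9536 to 9907. Untreated replicates 1 and 2 were the only SUPB15 library with a peak at 105 and 66 sites.

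Absence from a list is not a level of 0. The deposited values give a rough estimate of what would have been listed, which leaves counting noise out and sets no bound. If a SUPB15 library had shown the lowest Nalm6 fold of a site at its own genome background, the peak would have reached the lowest −log10 p listed there at 9285 Nalm6-only sites for SUPB15 asparaginase replicate 1 (98.1%). For asparaginase replicate 2 this number was 9176 (96.9%), and for the untreated replicates 1 and 2 it was 8654 (91.4%) and 8847 (93.4%). Folds in SUPB15 ran lower, however. At the 3812 regions listed in all 8 libraries the median SUPB15 fold was 0.801 and 0.714 times the Nalm6 mean with asparaginase, and 0.653 and 0.616 times without. These regions had all passed in SUPB15, so the ratios may be too high for unlisted sites. With the mean Nalm6 fold of each site scaled by these ratios, 9141 (96.5%) and 8329 (88.0%) Nalm6-only sites would have been listed in the asparaginase libraries. In the untreated libraries this held for 4355 (46.0%) and 3938 (41.6%) sites. The scaled numbers again take the genome background of each library. At the same fold a higher local background gives a smaller p, so more sites could pass. The SUPB15 background at unlisted sites is not known, and the numbers were not split by strength. Absence from the untreated SUPB15 lists is thus no sure sign of a lower level.

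SUPB15 peaks were usually not far away. The nearest SUPB15 peak lay a median of 8.10 kb from the edge of a Nalm6-only site, with quartiles of 2.91 and 18.2 kb. It was less than 1 kb away at 1200 sites (12.7%) and 100 kb or more away at 193 sites (2.04%). The nearest of all was the site at chr1:154989337-154990494, which a SUPB15 peak missed by 2 bp. Its fold enrichment was 5.99 and 6.95 with asparaginase and 6.42 and 6.71 without, so it is Nalm6-only by the 1 bp rule alone. Just inside the rule, 130 sites with a SUPB15 peak less than 100 bp away had a median lowest fold of 3.86, and just outside it 52 sites overlapped by a single SUPB15 peak over at most 50 bp had 4.02.

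The strongest Nalm6-only sites stood far above this crowd. The leading site lay at chr17:19015114-19015575 and ranked 2 of the 25184 constant sites by its lowest fold. Its fold enrichment was 22.5 and 23.0 with asparaginase and 21.8 and 21.6 without. The next was on the same chromosome at chr17:18966736-18967316 and ranked 8, with 19.0 and 20.7 with asparaginase and 18.9 and 20.4 without. Both were narrow, 462 and 581 bp, and the summits of the 4 libraries coincided within 1 and 0 bp. Neither passed the test between treatments (limma adjusted p = 0.293 and 0.309). At the leading site the summit pileup (with 1 fragment added, here and in all such ratios) was 46.6 and 48.0 times the genome background with asparaginase and 42.4 and 44.8 times without, and at the next 27.6 and 29.6 times with it and 25.2 and 28.0 times without. The nearest SUPB15 peaks were 13.2 and 14.3 kb away.

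The third site, at chr3:50358424-50359465, had a fold enrichment of 18.1 and 17.3 with asparaginase and 15.6 and 16.8 without. Its pileup over genome background was 69.3 and 72.5 with asparaginase and 67.0 and 72.4 without, values that overlap. The other 9 of the 12 strongest sites were all higher in both asparaginase libraries than in either untreated library by that measure. The leading site was as well. With no shift common to all sites removed, this order held at 6112 of the 9469 Nalm6-only sites. It held at 15212 of the 25184 constant sites, so it is not particular to strong sites. At chr14:96586059-96587031 the pileup was 99.2 and 101 times the genome background with asparaginase and 27.3 and 30.1 times without. At chr10:1677262-1678229 it was 93.7 and 105 times with asparaginase and 27.6 and 37.6 times without, and at chr18:77481614-77482617 it was 77.9 and 84.1 times with it and 23.6 and 27.2 times without. At these 3 sites the groups were separated by a wide gap.

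The remaining strong sites showed the same order of groups. They lay at chr10:122983976-122985099, chrY:6777022-6778932, chr6:33777004-33777755, chr12:26056135-26057445, chr21:45485214-45485943 and chr8:28196247-28197291. The highest pileups were on chromosome Y, 149 and 150 times the genome background with asparaginase and 78.8 and 95.0 times without. The nearest SUPB15 peak to that site was 362 kb away, in a chromosome on which the 4 SUPB15 lists held 42 to 106 peaks.

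**Figure D2:**
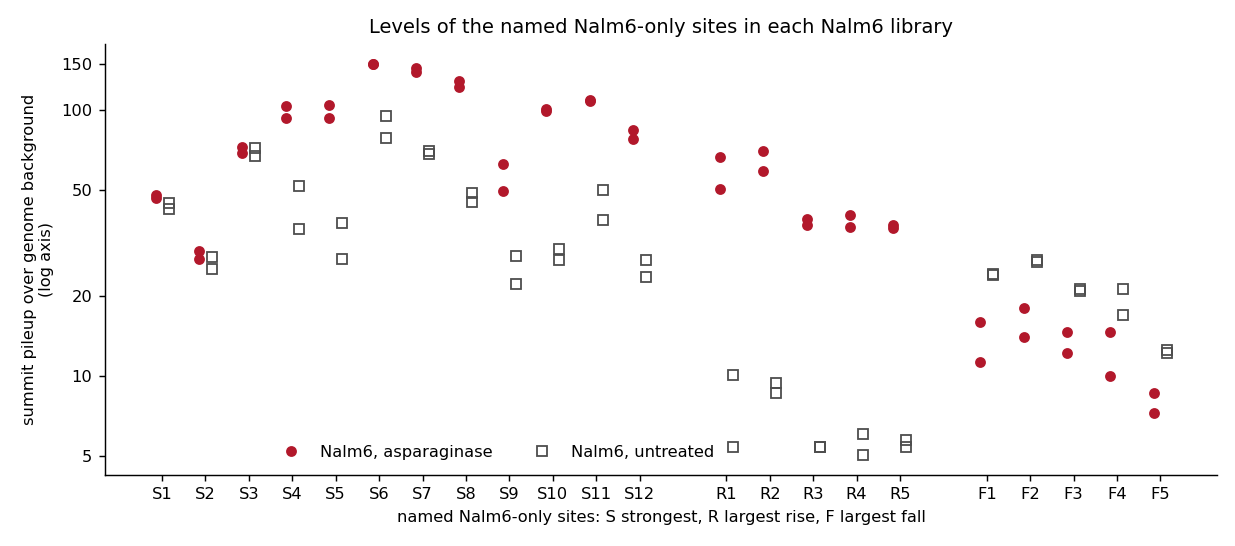
Summit pileup over genome background (log axis) of the named Nalm6-only sites in each Nalm6 library, filled circles with asparaginase and open squares untreated: S1 to S12 are the strongest sites in order, R1 to R5 the largest rises and F1 to F5 the largest falls. The groups lie close together at S1 to S3 and apart at S4 to S12, and R1 to R5 lie at 36.0 or above with asparaginase and at 10.1 or below untreated.

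Across all Nalm6-only sites the level with asparaginase was moderately higher. The median pileup over genome background was 12.7 and 13.7 with asparaginase and 9.09 and 10.0 without, a ratio of 1.38 between groups (exact two-sided permutation test over the 4 libraries, p = 0.333, the smallest that 6 arrangements allow; with each pair as 1 sample no test is possible). At the other constant sites it was 19.5 and 21.0 with asparaginase and 14.5 and 16.1 without, a ratio of 1.32. The difference between these 2 changes was a log2 value of 0.061 (p = 0.333 by the same exact test). The common shift over all 25184 constant sites, taken as the median of the changes of single sites, was 0.37 on the log2 scale, 1.29-fold. By that measure the change was 0.406 at Nalm6-only sites and 0.325 at the other constant sites. With the deposited fold enrichment, which divides by the local background, the change of the median level of Nalm6-only sites was 0.20 instead of 0.47 on the log2 scale.

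Changes of single sites were therefore counted relative to that common shift. In limma, fitted over all 25184 constant sites, 1450 Nalm6-only sites (15.3%) were higher with asparaginase at a Benjamini-Hochberg adjusted p under 0.05, where 22.7% of all constant sites were. A further 451 (4.76%) were lower, where 8.65% of all constant sites were. The 1901 sites called were 20.1% of the Nalm6-only sites, where 31.3% of all constant sites were called. Of the 1901, 76.3% were higher; with no removal of the common shift 3546 were higher and 26 lower, 99.3% higher. Without that removal 37.4% of Nalm6-only sites were higher (38.8% of all constant sites) and 0.275% lower (0.397%). The level was at least 2-fold higher beyond the shift at 576 sites (6.08%, against 11.8% of all constant sites) and at least 2-fold lower at 6 sites (0.0634%, against 0.0596%). The gap between Nalm6-only and all constant sites thus narrows when the common shift is kept, and it carries no test. Without any single Nalm6 library fewer Nalm6-only sites were called in either direction, and so were fewer of all constant sites.

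The share called higher differed with strength, but how depended on which libraries set the strength. With the 25184 sites in deciles by the mean level of all 4 Nalm6 libraries, 39 of 1826 Nalm6-only sites (2.14%) were called higher in the weakest decile and 50 (2.74%) lower. In the strongest decile 149 of 205 (72.7%) were called higher and 12 (5.85%) lower. Of the other constant sites, 2.89% of the weakest decile and 69.0% of the strongest were called higher, and 3.17% and 10.1% lower. This mean holds the asparaginase libraries, so a site with a large rise is moved to a stronger decile by that rise. With deciles by the untreated libraries alone, an alternative added after the data had been seen, 254 of 1607 Nalm6-only sites (15.8%) were called higher in the weakest decile and 44 of 144 (30.6%) in the strongest. In that sorting 2 of the weakest (0.124%) and 41 of the strongest (28.5%) were called lower. The shares called lower were nearly the same among the other constant sites, 0.119% and 27.2%. The untreated values set these deciles and also enter the change, so neither sorting is independent of the change.

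The comparison with the other constant sites turned with the sorting as well. By all 4 libraries, the ninth decile had 44.9% of Nalm6-only sites and 32.0% of the others called higher, and the third had 11.0% and 16.8%. By the untreated libraries, the ninth decile had 23.5% and 19.9%, the third 14.4% and 31.1%, and the strongest 30.6% and 39.4%. In the 5 weakest deciles Nalm6-only sites had the lower share under both. These differences carry no test of their own, since sites of the same libraries are not replicates.

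**Figure D3:**
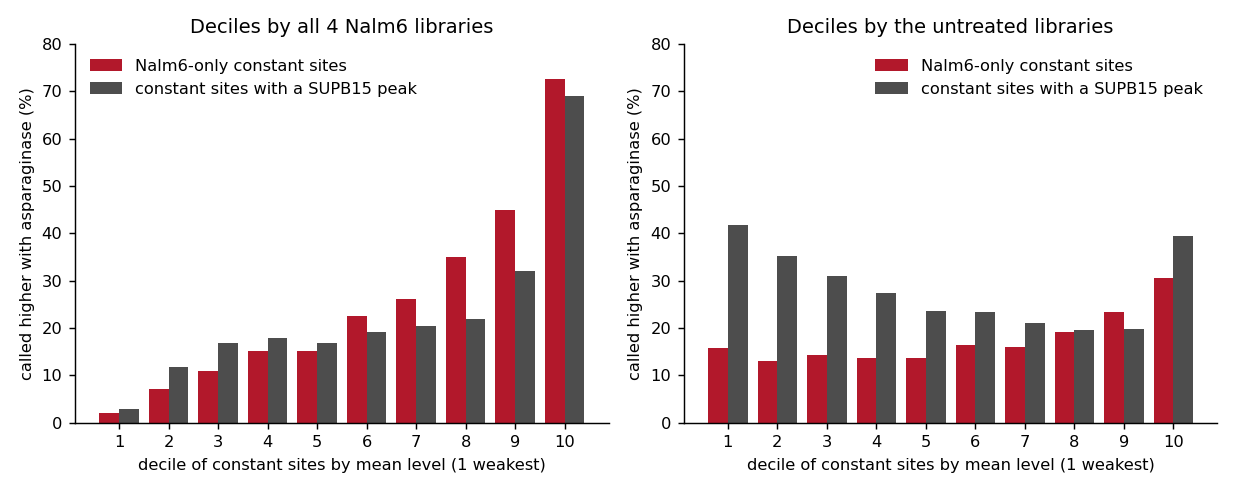
Share of constant Nalm6 sites in percent called higher with asparaginase by limma, in deciles by mean log2 pileup over genome background (1 weakest), with Nalm6-only sites in red and constant sites with a SUPB15 peak in grey. Deciles are set by all 4 Nalm6 libraries on the left, where the strongest had 72.7% and 69.0%, and by the untreated libraries on the right, where it had 30.6% and 39.4%.

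The constant sites formed a gradient with the number of SUPB15 lists that held them. The share with a −log10 q of at least 10 in all 4 Nalm6 lists was 20.7% at Nalm6-only sites, 43.6% at sites in 1 SUPB15 list, 58.5% in 2, 76.0% in 3 and 87.8% in all 4. A level 2-fold or more higher with asparaginase beyond the common shift was not graded in the same way. It was found at 6.08% of Nalm6-only sites and 5.34% of sites in 1 SUPB15 list, then at 15.1%, 15.9% and 26.8% of sites in 2, 3 and all 4. Among the 3871 constant sites that SUPB15 listed in both asparaginase libraries and in neither untreated one, 664 (17.2%) were that much higher. Fitted alone, the 12073 constant sites with a −log10 q of at least 10 in all Nalm6 lists gave 578 Nalm6-only sites called higher (29.5% of 1962, where 30.0% of all these sites were) and 129 called lower (6.57%, where 9.19% were).

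The largest rise was at chr4:152649340-152650388. The summit pileup there was 50.7 and 66.9 times the genome background with asparaginase and 10.1 and 5.38 times without, a change of 2.62 ± 0.20 (SE) on the log2 scale beyond the common shift (limma adjusted p = 3.64e-28). A SUPB15 peak lay only 562 bp from its edge. The site at chr2:63268456-63269396 had 70.2 and 59.2 times with asparaginase and 9.42 and 8.60 times without, a change of 2.47 ± 0.19 (limma adjusted p = 6.35e-28). In both, the lower asparaginase library was over 5 times as high as either untreated library.

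Sites that were low without the drug followed. At chr7:50766676-50767490 the pileup was 37.1 and 39.0 times the genome background with asparaginase and 5.39 and 5.38 times without. At chr3:47088266-47089072 it was 36.2 and 40.3 times with asparaginase and 6.06 and 5.02 times without, with a SUPB15 peak 177 bp away. The site at chrX:100897001-100897702 had 37.1 and 36.0 times with asparaginase and 5.72 and 5.38 times without, and its nearest SUPB15 peak was 251 kb off. Their changes were 2.46, 2.43 and 2.36 on the log2 scale, with limma adjusted p-values of at most 6.33e-21. These 5 were thus constant by presence alone, and the level at each differed several-fold between treatments. They were picked for their rises in the same libraries, so the sizes and p-values are no separate support.

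Falls were smaller. The largest was at chr5:176073802-176074834, with 11.3 and 15.9 times the genome background with asparaginase and 24.2 and 24.0 times without, a change of -1.21 ± 0.21 (SE) on the log2 scale (limma adjusted p = 1.6e-07). At chr17:36861024-36861809 the pileup was 14.0 and 18.0 times with asparaginase and 27.3 and 26.9 times without (-1.13 ± 0.20, limma adjusted p = 3.67e-07). The other 3 lay at chr1:22263408-22264540, chr4:47486994-47487937 and chr14:105155589-105156503, with changes of -1.02, -1.01 and -1.01. The groups did not overlap at any of the 5, also before the common shift was removed, where the lowest change was -0.85. These sites were picked for their falls in the same libraries, so this is no separate support. Before that removal 359 of the 9469 Nalm6-only sites and 1542 of the 25184 constant sites were lower without overlap.

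Nalm6-only sites were spread over all chromosomes. Their share of constant sites was lowest on chromosomes 8 (32.3%), Y (32.4%, 11 of 34 sites) and 6 (32.8%) and highest on chromosomes X (43.6%), 22 (43.1%) and 14 (42.2%). With asparaginase SUPB15 had 1.40 listed peaks per Nalm6 peak over the genome. Where the share was lowest, this number was 4.63 on chromosome 8, 1.23 on Y and 1.43 on 6, so it was high on chromosome 8 alone of these. Where the share was highest it was low, 0.452 on chromosome X, 0.720 on 22 and 0.905 on 14. The plot by chromosome shows both quantities. They are tied by the rule, since more SUPB15 peaks leave fewer constant sites without one.

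**Figure D4:**
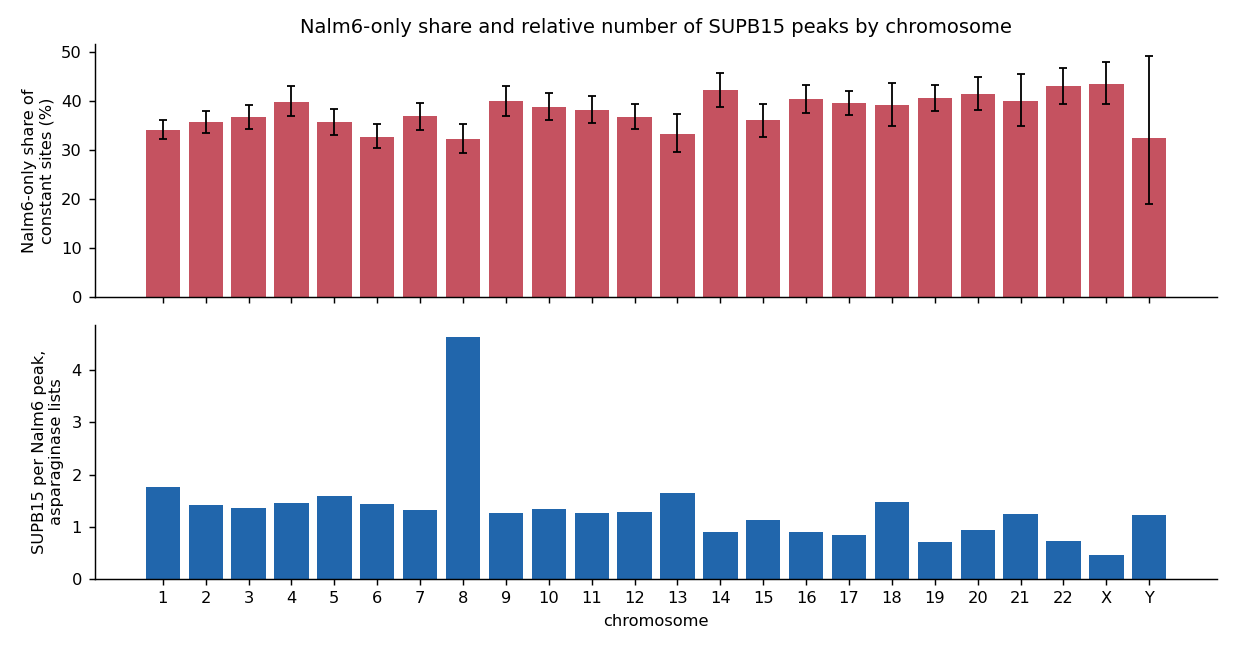
Top, Nalm6-only share of the constant Nalm6 sites in percent on each chromosome, with 95% Wilson intervals that cover counting error only. Bottom, SUPB15 peaks per Nalm6 peak in the asparaginase lists, which was 4.63 on chromosome 8 and 0.452 on chromosome X.

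On a finer scale SUPB15 peak numbers ran opposite to the share. The share counts sites without a SUPB15 peak, so this direction is largely set by the rule. Over 513 windows of 5 Mb with at least 10 constant sites, the Nalm6-only share had a median of 35.3% and ran from 0% to 83.3%. Spearman's rho between this share and the number of SUPB15 peaks per Nalm6 peak was -0.581 and Pearson's r was -0.355, as a description across windows that share all libraries. In the fifth of windows with the fewest SUPB15 peaks per Nalm6 peak 45.8% of the constant sites were Nalm6-only, and in the fifth with the most 26.2% were. On chromosome 8 from 60 Mb, where SUPB15 peaks were dense, 141 of 523 constant sites (27.0%) were Nalm6-only, and on chromosome 1 from 180 Mb 187 of 646 (28.9%), against 38.1% outside both segments. The part of copy number in this was not tested.

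The window with the highest share was on chromosome 4 from 175 to 180 Mb, where 10 of 12 constant sites were Nalm6-only. Nalm6 listed 22 and 26 peaks there with asparaginase and 14 and 16 without, while SUPB15 listed 2 and 2 with asparaginase and 1 and 2 without. The window belonged to a longer stretch. From 170 to 190 Mb of chromosome 4, 66 of 98 constant sites (67.3%) were Nalm6-only, and the asparaginase lists held 171 and 202 Nalm6 peaks beside 65 and 26 SUPB15 peaks. In the 20 Mb before it, from 150 to 170 Mb, 30 of 75 constant sites were Nalm6-only, and the asparaginase lists held 172 and 204 Nalm6 peaks beside 343 and 138 SUPB15 peaks. Nalm6 peak numbers were thus alike in both stretches, and those of SUPB15 were several times lower in the distal one. The lower numbers began before 170 Mb: from 165 to 170 Mb the asparaginase lists held 31 and 30 Nalm6 peaks beside 12 and 3 SUPB15 peaks, while 6 of 14 constant sites were Nalm6-only. This stretch was set beside its neighbour after the values had been seen.

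The next windows were on chromosome X from 120 to 125 Mb (8 of 11 sites Nalm6-only), chromosome 15 from 95 to 100 Mb (21 of 30), chromosome 18 from 75 to 80 Mb (25 of 36) and chromosome 10 from 130 to 135 Mb (51 of 75). They did not share one pattern of SUPB15 peaks. The asparaginase lists of the window on chromosome 15 held 59 and 70 Nalm6 peaks beside 27 and 14 of SUPB15, and those of the window on chromosome X held 20 and 24 Nalm6 peaks beside 8 and 2 of SUPB15. The window on chromosome 18 held 45 and 53 Nalm6 peaks beside 88 and 28 of SUPB15, and that on chromosome 10 held 122 and 148 Nalm6 peaks beside 119 and 56 of SUPB15.

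Nalm6-only sites often had a neighbour of their own kind. The nearest constant Nalm6 site of either kind was a median of 12.4 kb from a Nalm6-only site, against 17.8 kb for the other constant sites, and it was itself Nalm6-only at 4363 of them (46.1%), against 5392 of the others (34.3%) and a share of 37.6% among all constant sites. In genomic order they formed 5354 uninterrupted runs, of which 3165 were single sites, 235 held 5 or more sites and 9 held 10 or more. The longest run had 15 sites at chr6:168352119-169285242, and 20 regions with a SUPB15 peak lay between them. On chromosome 16 a run of 10 sites from 922840 to 1354577, and on chromosome 1 a run of 10 from 2360952 to 2480656, held no SUPB15 peak at all. The run on chromosome 1 spanned 120 kb, and the run of 10 at chr4:175344137-178231491, also without a SUPB15 peak, spanned 2887.4 kb. Runs were described after their values had been seen.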

How the data were processed

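The authors deposited 1 peak list per library, from peaks called per library with MACS2 after alignment with BWA to hg19, per the submitters' processing notes, which also name DiffBind. Versions, options and any control library: not given in the sources used here. Each deposited peak carries a fold enrichment (ratio), −log10 p and −log10 q, as the authors' caller wrote them; the deposited display score was not used. The lowest −log10 q was 1.31 to 1.63.

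Fold and p were solved for the whole-number summit pileup and local background, (pileup + 1) / (background + 1) and a Poisson p, with a tolerance of 0.001 in −log10 p; this succeeded for 100% of peaks. The lowest background of a library was its genome background. A region's value is that of the list's strongest peak. Levels were log2((pileup + 1) / genome background), centred on the median change and compared with limma 3.58.1 (R 4.3.3; trend, Benjamini-Hochberg), tested on simulated data. Regions named were the 12 strongest sites, 5 largest rises and 5 falls past adjusted p 0.05, the site nearest a SUPB15 peak and 5 windows. Members and lists were chosen with earlier results of these data known. Planned gene lists and sequences were not used, for want of an hg19 reference. The files give no read totals, so depth is relative.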

Additional observations from a re-analysis of the deposited data

How the results depend on the processing

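The number of Nalm6-only sites stayed within 1.5 times of 9469 (7144 to 13601) in 14 of the 15 alternatives. The lowest, with a −log10 q of at least 10 in all 8 lists, also dropped SUPB15 peaks that bar sites. So did the highest, with the same number of strongest peaks in the 4 lists of each line. A similar number can thus hold other sites, and the sites shared with the 9469 were not counted. With a −log10 q of 10 in all Nalm6 lists and absence from the full SUPB15 lists the number was 1962, as fewer peaks can count. Without single libraries it was 9536 to 13476. The number called higher was 3546 with no centring and 578 among sites with a −log10 q of at least 10, and 907 to 1245 without single libraries. The number called lower was 284 with the deposited fold enrichment, 26 with no centring, 129 with a −log10 q of at least 10 and 149 to 326 without single libraries. Centring removes a common rise, and the stricter threshold leaves fewer sites; the cause of the change with the deposited fold enrichment was not tested. Leaving out a library left 1 library in a group, which is assumed to vary like the other. With a replicate block 730 sites were lower and 1770 higher; deviations of same-numbered libraries correlated by 0.034, so the numbers were not taken to pair the libraries. The change of the median level kept its direction (0.20 to 0.54 on the log2 scale); without single libraries it was 0.39 to 0.54, and its p cannot pass 0.05. With deciles set by the untreated libraries, added after the data had been seen, 30.6% of the Nalm6-only sites of the strongest decile were called higher, against 72.7% with all 4 libraries. Sites near the calling limit cannot be told from unlisted ones at this depth.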
